A study of Mus musculus with 29 samples.

Results

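Cytosolic ribosomal protein genes were followed in tissue labelled as mouse hypothalamus from postnatal day 5 (P5) to 24 months of age. The members were the symbols that start with Rpl or Rps and a digit, plus Rplp0, Rplp1, Rplp2 and Rpsa, without pseudogene symbols (-ps) and S6 kinase genes. This gave 89 of the 24499 gene symbols: 43 proteins of the large (60S) subunit, 31 of the small (40S) subunit, 3 of the stalk, and 12 paralogs or other symbols. The last group holds Rpl10l, Rpl22l1, Rpl32l, Rpl36al, Rpl37rt, Rpl39l, Rpl3l, Rpl7l1, Rps27l, Rps27rt, Rps4l and Rps19bp1, which encodes a binding protein of RPS19 and no ribosomal protein. The rule leaves out some genes of the cytosolic ribosome with other symbols, of which Fau (RPS30) and Rack1 are given beside the members.

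The cytosolic ribosome is built in the nucleolus from ribosomal RNA and mostly equal numbers of each protein, and it translates the messages of the nucleus. Mouse cells make most ribosomal proteins from a single expressed gene that stands beside many silent processed copies. Their messages, with those of several elongation factors, begin with a run of pyrimidines (a 5' terminal oligopyrimidine, or TOP, tract), through which the kinase complex mTORC1 and the binding protein LARP1 set their translation. Growing and dividing cells make many ribosomes, and mature neurons keep making them for local and somatic protein synthesis.

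The mice were wild-type C57BL/6, all labelled male and singly housed on a light and dark cycle, with no treatment. The hypothalamus was taken near the middle of the light phase and kept in RNAlater, and paired-end RNA libraries were sequenced. The libraries used numbered 3 for P5 and for 3 weeks, 4 for 4 weeks and for 5 weeks, 3 for each of 2, 6, 12 and 18 months, and 2 for 24 months. The labels do not say that libraries came from separate litters or batches, so a p-value covers only how far these libraries spread, which may be technical.

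The 28 libraries held 24661631 to 39783779 gene counts each. Another 24-month library was left out as partial, since its 2377580 counts covered 1385 genes and every positioned one (1341) lay on chromosome 1 or 10. The tissue label is hypothalamus, but 25 of the 28 library titles contain thal, tha or th, and what that stands for is not settled by the labels. Summed over 16 hypothalamic and 8 thalamic markers, the libraries had 116 to 1677 CPM and 567 to 1623 CPM, and no marker of either list was at 0 at any age. Several libraries stood apart from their labels or their group. P5 replicates 1 and 2 had 746 and 791 CPM (counts scaled to the size of the library) of Xist, an RNA of the second X chromosome of females, and no count of the Y-linked Ddx3y. The 2-month libraries had a summed level of 116 to 241 CPM for 16 hypothalamic markers, against 667 to 1072 CPM at 5 weeks, and none of the 16 was at 0. In that step 14 of the 16 fell, and 5 of 9 tested midbrain and hindbrain markers rose. The salivary gland transcript Bpifa2 was present at 33.98 to 47.0 CPM at 3 weeks and was at 0 in every library at 5 weeks.

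The 30 bases around an annotated RNA start (15 before and 15 after) were read for runs of pyrimidines. They came from the RefSeq promoter table (GRCm38.p6) for the 68 of 89 members it held. Where a gene had several starts there, the one with the longest run of C and T was taken. The run could lie anywhere in the window, whereas a TOP tract opens the message. The 4 members that fell most at 3 weeks, Rpl15 as a member that fell with a long run, and 3 of those that rose are printed, 5' to 3' on the strand of the gene, with the longest run of C and T in capitals. The windows lie at chr5:115559452-115559481 (plus strand, Rplp0), chr17:24720048-24720077 (plus, Rps2), chr10:128626492-128626521 (minus, Rps26), chr7:141447636-141447665 (plus, Rplp2), chr14:18270972-18271001 (minus, Rpl15), chr7:45128731-45128760 (minus, Rpl13a), chr16:33056467-33056496 (plus, Rpl35a) and chr5:115110254-115110283 (minus, Rpl37rt).
Rplp0: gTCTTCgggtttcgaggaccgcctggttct
Rps2: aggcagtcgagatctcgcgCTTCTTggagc
Rps26: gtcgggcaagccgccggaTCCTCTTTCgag
Rplp2: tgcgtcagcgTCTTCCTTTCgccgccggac
Rpl15: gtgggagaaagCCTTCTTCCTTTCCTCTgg
Rpl13a: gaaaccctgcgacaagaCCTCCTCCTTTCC
Rpl35a: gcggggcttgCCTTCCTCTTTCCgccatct
Rpl37rt: gTCTTCaggccagagcccgcacccagcagt
Long and short runs occurred on both sides. Of the 47 members that fell at 3 weeks, 37 had an entry. Their longest run went from 3 bases, as in Rpl41, to 19 in Rpl27a, with 5 in Rplp0, 10 in Rplp2 and 17 in Rpl15. In the 5 of the 6 risers with an entry it was 13 bases in Rpl13a and Rpl35a, 5 in Rpl37rt and Rpl3l, and 2 in Rpl7l1. Over the 68 members the median longest run was 7 bases, and 41.2% held a run of at least 8, against a median of 5 and 13.9% for the 27025 genes of the table. Among members with an entry, 17 of 37 that fell at 3 weeks held a run of at least 8. So did 10 of 28 that were tested and did not fall. These are matches of letters and were not tested as sites or as TOP tracts. In Rplp0 and Rpl37rt the marked run lies before the annotated start.

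The promoters, taken as 250 bases before to 50 after the start and searched on both strands, were also read for short motifs. A gene with several promoters in the table was counted once, if any of them held the motif. The ETS core CCGGAAG was found for 38.2% of the members and 9.93% of all genes in the table. The palindrome TCGCGAGA was in 16.2% and 1.13%, the SP1 motif GGGCGG in 60.3% and 38.2%, and the YY1 core AAGATGG in 14.7% and 7.28%. The TATA box letters TATAAA were found for 11.8% of the members and 15.7% of all genes. These motifs do not contain each other, and they may overlap within a promoter.

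In all, 86 of the 89 members had enough counts to be tested, and 85 stood at 5 CPM or more at every age. Rpl10l, a testis paralog of Rpl10, had no count in any library, and Rpl32l and Rpl39l had 37 and 72 counts over all 28. Per kilobase of annotated exon, Rplp1, a stalk protein, stood highest with a mean of 945 CPM per kilobase, followed by Rps15 with 519 and Rpl36 with 492. This length joins the exons of all annotated transcripts of a gene, and was 499, 630 and 383 bases for these genes. It was 6270 bases for Rps15a, whose coding sequence has 393, so the order depends on the annotated transcripts. The median over all 89 was 104 CPM per kilobase. Rpl3l, the heart and skeletal muscle paralog of Rpl3, was at 0.188 CPM per kilobase, against 194 for Rpl3 itself.

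Summed over the 89 members, the level was 20822 ± 918 CPM at P5 (SD, n = 3), 16241 ± 288 at 3 weeks (n = 3), 17667 ± 270 at 4 weeks (n = 4) and 16580 ± 621 at 5 weeks (n = 4). It was 20422 ± 5201 at 2 months, 18218 ± 1532 at 6 months, 19292 ± 2147 at 12 months and 18488 ± 1425 at 18 months (n = 3 each), and 19484 ± 454 at 24 months (n = 2). The mean sum was thus lowest from 3 to 5 weeks. All libraries of these ages have titles that begin with th, and all other titles begin with R. The th libraries had 6.59 to 11.2% of reads of low mapping quality, against 5.00 to 6.26% in the others. Age and this difference between libraries cannot be told apart at 3 weeks against P5, or at 2 months against 5 weeks. No library of 3 to 5 weeks reached the lowest P5 library, at 19782 CPM. Some later libraries lay within the range of 3 to 5 weeks (16008 to 18050 CPM), as 2-month replicates 12 and 13 did (17546 and 17295 CPM). The lowest libraries at 6, 12 and 18 months also lay within it (16952, 17630 and 17482 CPM). The members made up 1.57% of all gene counts at 3 weeks and 2.12% at P5. In whole tissue, fewer cells of a type and less RNA per cell cannot be told apart.

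**Figure D1:**
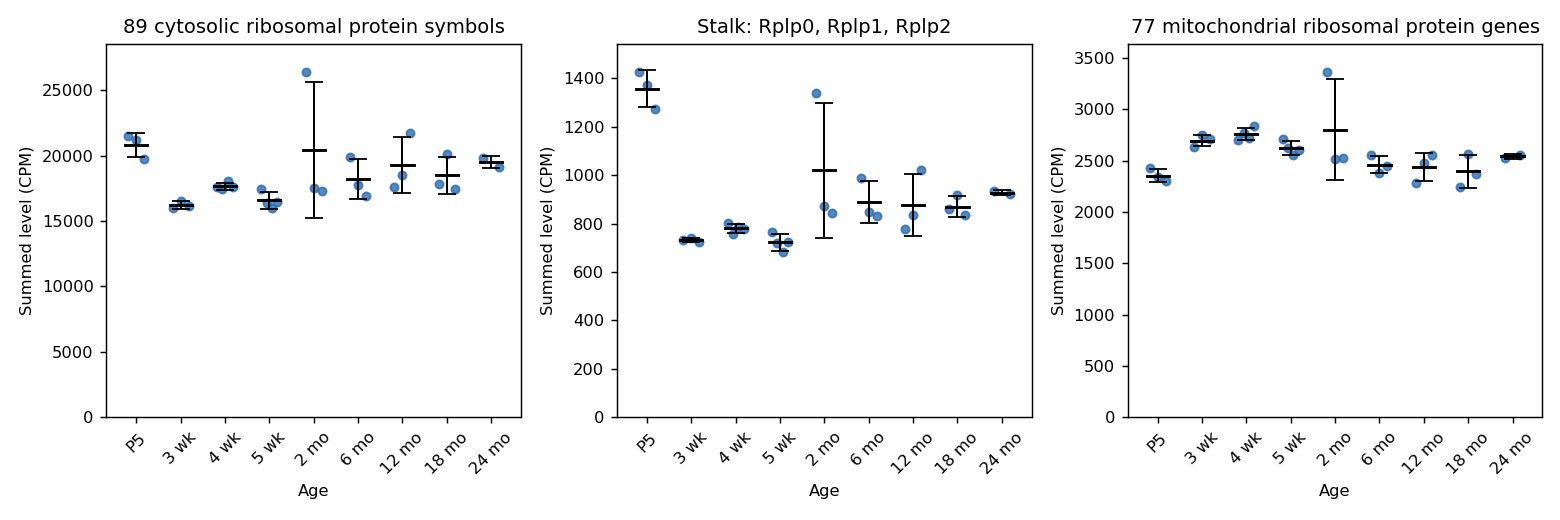
Summed level in CPM of the 89 cytosolic ribosomal protein symbols, of the 3 stalk genes and of 77 mitochondrial ribosomal protein genes, by age. Points are libraries, thick lines the mean and bars 1 SD. The cytosolic sum is 16029 to 16569 CPM at 3 weeks and 19782 to 21522 CPM at P5, and 1 library at 2 months stands at 26427 CPM.

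At 3 weeks most tested members were lower than at P5. Of the 86 tested members, 47 fell and 6 rose at an adjusted p below 0.05 (edgeR quasi-likelihood test, Benjamini-Hochberg over all genes). Of all 16916 tested genes, 29.3% fell and 29.8% rose in this comparison, 59.0% in all. The members' median log2 fold change was -0.30, against -0.0090 over all genes. All 3 stalk genes fell, as did 19 of 31 members of the 40S subunit and 23 of 43 of the 60S subunit, where 3 rose. Of the members that fell, 20 did so by at least 1.5-fold. Of those that rose 1 did, Rpl3l, which was near the floor at both ages. The share of all genes past this fold was not counted. The 3-week libraries all lay below the P5 libraries for 52 members and above them for 6. Over all genes this held for 33.6% and 33.4%. With P5 replicate 3 as the only P5 library, the one without Xist, 29 members fell and 2 rose, against 22.4% and 22.6% of the 17196 genes tested, and the median was -0.25. In that fit the spread comes from the other ages, and the lone P5 library is assumed to vary like them.

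The 77 mitochondrial ribosomal protein genes, which encode proteins of the separate ribosome of mitochondria, were read in the same fit. Of these 34 rose, 5 fell and 38 had no call, with a median log2 fold change of 0.17. Their summed level was 2696 ± 57.0 CPM at 3 weeks and 2355 ± 62.8 CPM at P5 (SD, n = 3 each). The difference between the families was not tested.

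The stalk, built from the scaffold RPLP0 with RPLP1 and RPLP2, recruits the elongation factors. Rplp0 (chr5:115559467-115563727, plus strand, GENCODE M21, GRCm38) had 262, 265 and 263 CPM at 3 weeks, against 613, 611 and 560.2 CPM at P5. It fell more than any other member that passed the test, with a log2 fold change of -1.17 ± 0.10 (SE, edgeR adjusted p = 4.4e-10). Rplp2 had 100.2, 123 and 106 CPM at 3 weeks, against 221, 215 and 190.1 CPM at P5 (log2 fold change -0.93 ± 0.12, edgeR adjusted p = 7.0e-07). Rplp1 had 369, 352 and 353 CPM at 3 weeks, against 595, 546 and 524 CPM at P5 (log2 fold change -0.63 ± 0.13, edgeR adjusted p = 2.1e-04). No 3-week library overlapped a P5 library for any of the 3 genes. The stalk sum was 731 ± 8.04 CPM at 3 weeks and 1358 ± 77.6 CPM at P5 (n = 3 each).

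On the 40S subunit, Rps2, a protein of the mRNA entry channel, had 430.4, 426 and 407 CPM at 3 weeks, against 852, 833 and 768 CPM at P5. Its log2 fold change was -0.96 ± 0.13 (edgeR adjusted p = 4.9e-07). Rps26, which lies by the mRNA exit, had 164, 172 and 170.2 CPM at 3 weeks, against 344, 319.8 and 306 CPM at P5 (log2 fold change -0.94 ± 0.11, edgeR adjusted p = 1.1e-07). Rpsa, known also as a laminin receptor precursor, had 508, 506 and 486 CPM at 3 weeks, against 844, 814 and 760.5 CPM at P5, a log2 fold change of -0.69 ± 0.12. Each of these genes fell with every 3-week library below every P5 library. Rps19, whose human gene is mutated in Diamond-Blackfan anemia, fell by 0.60 ± 0.13 on the log2 scale. Rps6, the substrate of the S6 kinases, had 285, 312 and 292 CPM at 3 weeks, against 299, 288 and 271 CPM at P5, and the groups overlapped (log2 fold change 0.05, or -0.023 without scaling for library composition).

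On the 60S subunit, Rpl29 had 114, 105 and 108 CPM at 3 weeks, against 227, 223 and 164 CPM at P5 (log2 fold change -0.91 ± 0.18, edgeR adjusted p = 1.6e-04). Rpl22, an RNA-binding protein of the subunit surface, had 80.5, 74.8 and 81.6 CPM at 3 weeks, against 135, 137 and 132 CPM at P5 (-0.77 ± 0.10 on the log2 scale). Rpl41, the shortest ribosomal protein, had 367, 383 and 374 CPM at 3 weeks, against 679.5, 619 and 609 CPM at P5 (-0.76 ± 0.15). All 3 genes fell with no overlap between the ages. Rpl35 fell by 0.67 ± 0.13 and Rpl7 by 0.39 ± 0.10 on the log2 scale, and Rpl7 lost its call in 1 of 13 alternative runs. Rpl5 and Rpl11 bind 5S ribosomal RNA and together hold back the p53 inhibitor MDM2 when ribosome assembly fails. Rpl5 fell by 0.29 ± 0.10 (edgeR adjusted p = 0.012), a call lost in 2 of 13 alternative runs, among them without 3-week replicate 2 (-0.23). Rpl11 had 244, 274 and 249 CPM at 3 weeks, against 251, 263 and 244 CPM at P5, and did not pass the test (edgeR adjusted p = 0.909). Its log2 fold change of 0.02 turned to -0.059 without scaling for library composition. Rpl38, needed in mouse for skeletal patterning, fell at the edge of the threshold (-0.40 ± 0.17, edgeR adjusted p = 0.050). Its call was lost in 7 of 13 alternative runs. Among these were the runs without any 1 of P5 replicates 1, 2 and 3 or 3-week replicates 1 and 2.

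Among the 6 members that rose, Rpl13a was the one whose rise held in every alternative run. RPL13A is a 60S protein that is known in human monocytes to leave the ribosome and silence inflammatory messages. It had 271, 295 and 279.9 CPM at 3 weeks, against 199, 199.6 and 182 CPM at P5 (log2 fold change 0.54 ± 0.13, edgeR adjusted p = 6.2e-04). Its share of the members' summed level was 1.74% at 3 weeks and 0.929% at P5, whereas the share of Rplp0 was 1.62% at 3 weeks and 2.85% at P5. Rpl35a had 136, 141 and 136 CPM at 3 weeks, against 112, 112 and 98.1 CPM at P5 (0.36 ± 0.14, edgeR adjusted p = 0.027). Its call was lost in 4 of 13 alternative runs, among them without P5 replicate 3, without 3-week replicate 2 and without scaling for composition. Rpl3, a core protein near the peptidyl transferase center, had 559, 574 and 563 CPM at 3 weeks, against 488, 503 and 486 CPM at P5 (0.20 ± 0.08, edgeR adjusted p = 0.038). The call of Rpl3 was lost in 9 of 13 alternative runs, among them without any single 1 of the 6 libraries. The libraries did not overlap.

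The other 3 members that rose were paralogs. Rpl37rt, annotated as a transcribed processed pseudogene, had 13.6, 14.3 and 13.99 CPM at 3 weeks, against 10.97, 11.2 and 9.58 CPM at P5 (log2 fold change 0.40 ± 0.17, edgeR adjusted p = 0.043). The call of Rpl37rt was lost in 9 of 13 alternative runs, among them without any single 1 of the 6 libraries. Rpl7l1, a relative of Rpl7, had 66.9, 58.4 and 65.6 CPM at 3 weeks, against 49.0, 60.6 and 48.2 CPM at P5 (0.28 ± 0.08, edgeR adjusted p = 0.0063). Its libraries overlapped, and the call was lost without P5 replicate 3 (0.21) and with the replicate number as a block (0.28). Rpl3l was near the floor in both ages, at 0.301, 0.397 and 0.208 CPM at 3 weeks and 0.1003, 0.144 and 0.084 CPM at P5. It passed the test (1.42 ± 0.56, edgeR adjusted p = 0.032), but lost the call in 5 of 11 alternative runs. Among these were the runs without P5 replicate 1 or 3 and without 3-week replicate 1 or 2.

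The paralogs are set beside their partners, with no test of the difference within a pair. Rpl7 fell while Rpl7l1 rose, and Rpl3 and Rpl3l both rose. Rpl36a fell by 0.47 ± 0.12 on the log2 scale, and Rpl36al, its paralog, had a log2 fold change of 0.15 ± 0.12 (edgeR adjusted p = 0.258). Rpl22 fell by 0.77 ± 0.10 and Rpl22l1 by 0.23 ± 0.09. The call of Rpl22l1 was lost in 7 of 13 alternative runs, among them without any single 1 of the 6 libraries. Rps27l, a p53 target, had 15.8, 15.025 and 18.3 CPM at 3 weeks, against 16.9, 18.6 and 15.9 CPM at P5, with no call. Rps4l had a log2 fold change of -0.22 ± 0.15, and the X-linked Rps4x fell by 0.44 ± 0.10. Rps19bp1 had 25.7, 22.8 and 22.8 CPM at 3 weeks, against 33.8, 33.99 and 31.8 CPM at P5, and fell by 0.48 ± 0.10.

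**Figure D2:**
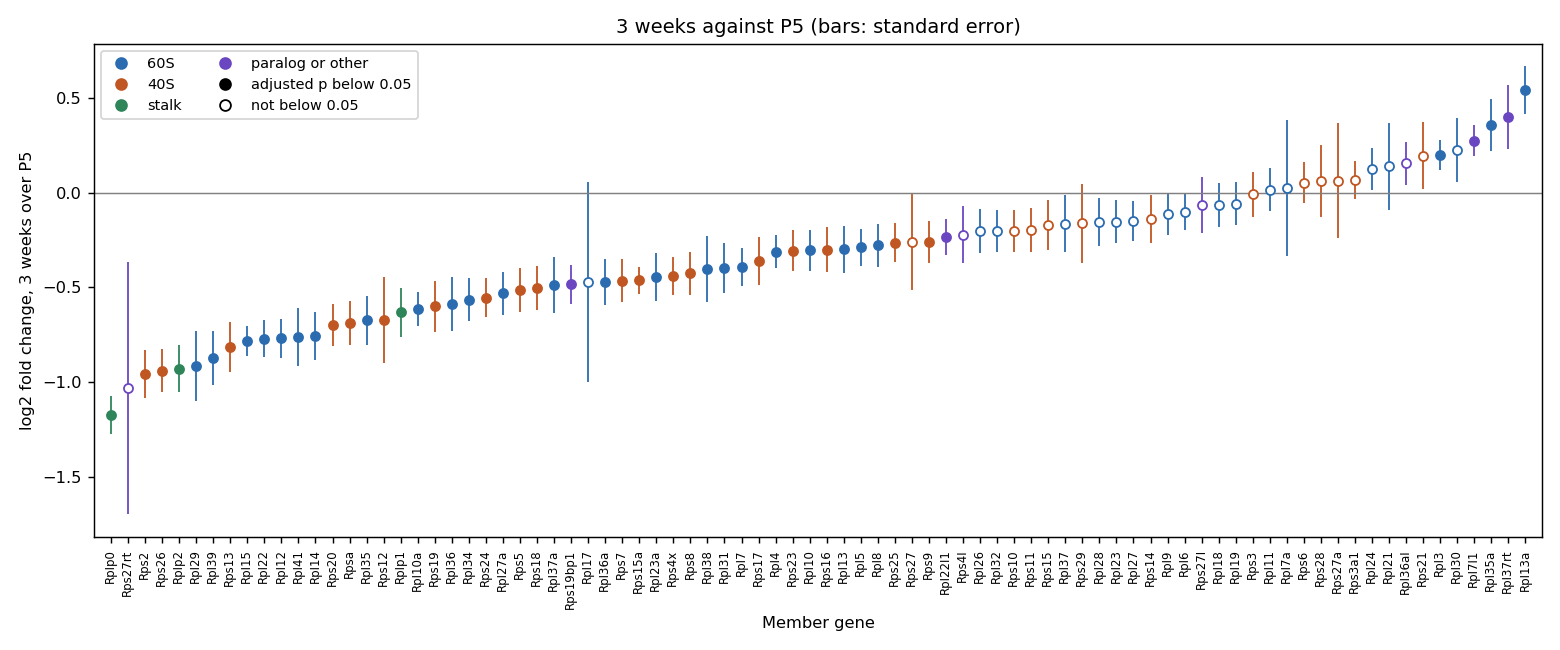
Log2 fold change of 84 tested members, 3 weeks over P5, in rising order with the standard error as bars. Rpl3l, at 1.42, is left out for scale. Filled points passed the test, colors give the subunit, and Rplp0 at -1.17 and Rpl13a at 0.54 mark the ends among the filled points.

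Several cell type marker lists moved strongly in the same comparison, where 29.8% of all tested genes rose and 29.3% fell. All 13 markers of immature neurons and dividing cells fell, with a summed level of 1240 to 1297 CPM at 3 weeks against 7160 to 7556 CPM at P5. All 10 oligodendrocyte markers rose, with a sum of 20782 to 25965 CPM at 3 weeks against 316 to 441 CPM at P5. All 7 blood cell markers rose, with a sum of 562 to 932 CPM at 3 weeks against 192 to 235 CPM at P5. None of these markers was at 0 at either age. All 9 microglial and 3 tested salivary gland markers also rose. Other lists moved in part or both ways. Of 10 astrocyte markers 8 rose and 1 fell, and of 13 neuronal markers 2 rose and 5 fell. Of 16 hypothalamic markers 6 rose and 1 fell, and of 8 thalamic ones 4 and 1. Of 6 oligodendrocyte precursor markers 4 rose and 2 fell, and of 9 midbrain and hindbrain markers 1 and 3. Of 8 endothelial and pericyte markers 6 rose, as did 2 of 10 of choroid plexus and ependyma. The part of these lists in the fall of the members was not tested.

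With 2 libraries carrying Xist, the 4 X-linked members were read at P5 by library. Rpl10 had 280.01, 279 and 254 CPM in P5 replicates 1, 2 and 3, and Rps4x had 300.1, 296 and 272 CPM. Rpl39 had 215, 188 and 183 CPM and Rpl36a 121, 104 and 103 CPM. The library without Xist was the lowest of the 3 for each of the 4, as it was for the summed level of all members, at 19782 CPM. At 3 weeks Rpl10, Rpl36a, Rpl39 and Rps4x all fell, and Rpl39 fell most, by 0.87 ± 0.14 on the log2 scale. Rpl10 lost its call in 3 of 13 alternative runs, among them without P5 replicate 2 and without 3-week replicate 3. Rpl36a lost its call in 1 of 13.

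Most members that fell did not stay clear of the P5 range. Over the 25 later libraries, 10 members stayed below all 3 P5 libraries in every one, against 20.4% of all tested genes. These were Rpl10a, Rpl12, Rpl15, Rpl22, Rplp0, Rps15a, Rps19bp1, Rps2, Rps26 and Rpsa. Rpl13a, Rpl3 and Rpl35a stayed above the P5 libraries in every later library, against 19.5% of all genes. Rplp0 averaged 221 CPM at 6 months, its lowest age, against 594 CPM at P5, the widest range of age means of any member with at least 5 CPM, at 1.43 on the log2 scale. Rps2 followed at 1.31. Rpl14, a 60S protein, had its lowest mean at 3 weeks, 153 CPM, and its highest at 24 months, 276 CPM, beside its P5 libraries (266, 260.1 and 248 CPM). Among the steadiest members were Rpl6, Rpl11, Rpl23 and Rps9, and the range of age means of Rpl6 was 0.11. Rps9 still fell at 3 weeks (-0.26 ± 0.11, edgeR adjusted p = 0.047). The call of Rps9 was lost in 8 of 13 alternative runs, among them without any single 1 of the 6 libraries.

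**Figure D3:**
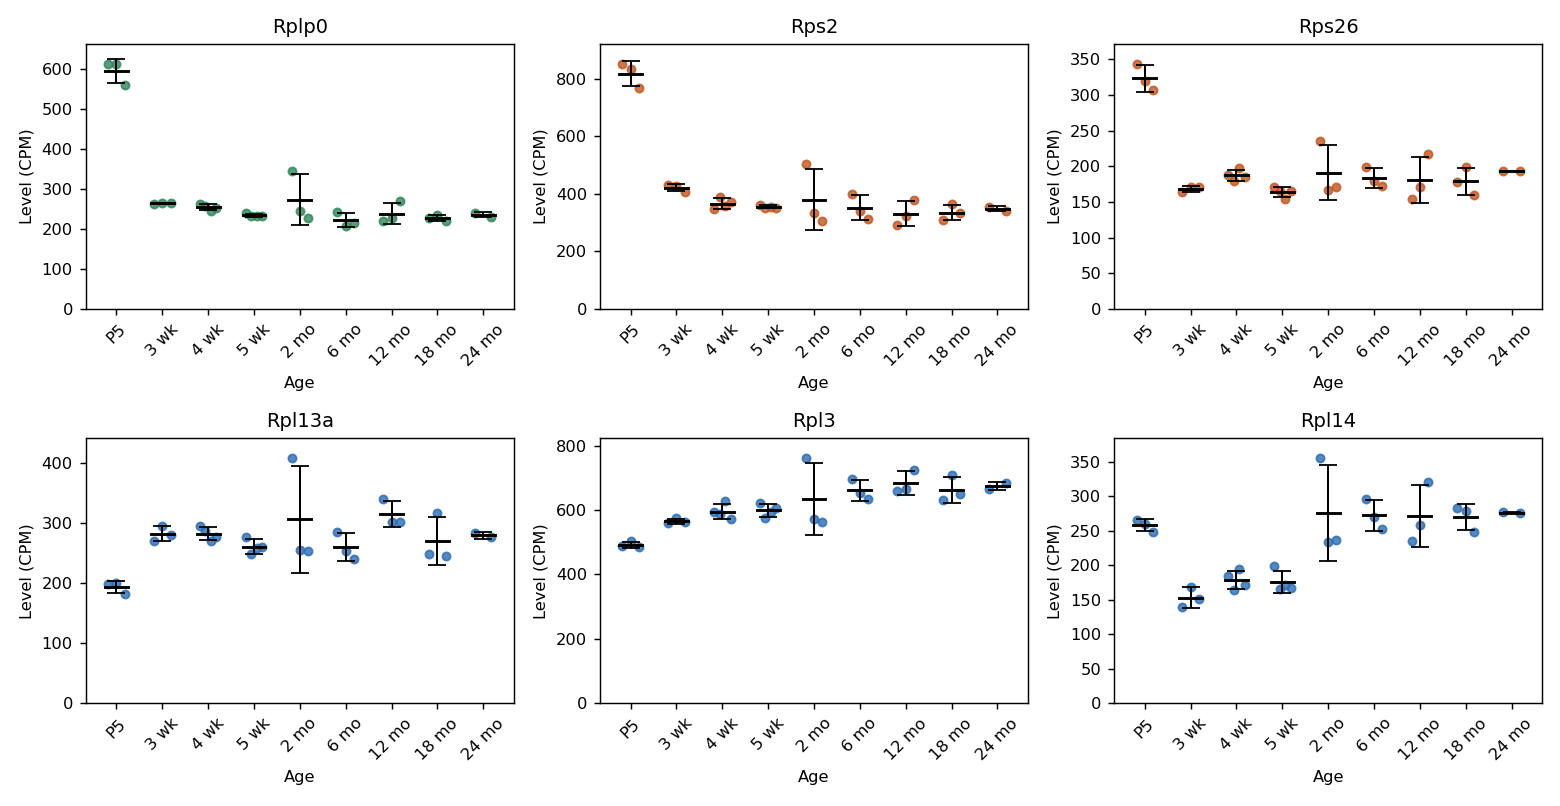
Level in CPM of 6 members by age, with points for libraries, thick lines for the mean and bars for 1 SD. Rplp0, Rps2 and Rps26 lie below the P5 libraries at every later age, Rpl13a and Rpl3 lie above them, and Rpl14 is lowest at 3 weeks with 139 to 169 CPM.

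Over all 9 ages 63 of the 86 members differed (edgeR F-test, adjusted p below 0.05), against 76.8% of all genes. Between 3 and 4 weeks no member passed the edgeR test. The spread was estimated over all 28 libraries, among them 2-month replicate 11, whose members stood a median of 0.41 above their age mean on the log2 scale. Its part in the calls of other steps was not tested. In fits of only those libraries of the 2 ages with shared replicate numbers, with that number as a block, 0 members were called in this step and the next. An unadjusted p below 0.05 was found for 17 of the 86, against 1957 of all 16916 genes. Of all genes 0.502% were called (0.183% higher and 0.319% lower). DESeq2 called 3 members, and edgeR without scaling for composition called 1, with the shares of all genes in these runs not given here. The 4-week libraries lay above the 3-week libraries for 39 members and below for 2, against 5.83% and 6.6% of all genes. Rpl22l1 had the smallest unadjusted p of the 86, with 93.0, 95.6, 110.3 and 95.9 CPM at 4 weeks against 78.9, 76.1 and 79.3 CPM at 3 weeks (0.34 ± 0.09, edgeR adjusted p = 0.092). From 4 to 5 weeks no member passed, and 5 had an unadjusted p below 0.05, against 1375 of all 16916 genes. DESeq2 called 1 member, with its share of all genes not given here. Of all genes edgeR called 0.0236% (0.0118% in each direction). The 5-week libraries lay below the 4-week libraries for 21 members and above for none, against 3.94% and 2.61% of all genes. The 3-week libraries and 4-week replicates 1 and 2 carried Bpifa2, whereas 4-week replicates 3 and 4 and the 5-week libraries had 21.7 to 29.6 CPM of the RNA Rn7s2. With these 2 sets as a term in the fit, 0 members were called in both steps, as without it. The members' median log2 fold change was 0.104 at 4 weeks and -0.0976 at 5 weeks with the term, against 0.126 and -0.0890 without it. Only 4 weeks held libraries of both sets, so the term rests on that age.

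At 2 months 31 members rose relative to 5 weeks and none fell, against 7.13% and 9.43% of all genes (16.6% called). The 2-month libraries lay above the 5-week libraries for 28 members and below for none, against 11.6% and 13.5% of all genes. The members' median log2 fold change was 0.27, against 0.012 over all genes. The highest were Rps27a, Rpl36, Rpl14 and Rpl34. Rpl36 had 311, 193 and 202 CPM in 2-month replicates 11, 12 and 13, against 158, 151, 136 and 150.1 CPM at 5 weeks (0.66 ± 0.13, edgeR adjusted p = 0.0015). Rpl14 had 355, 233 and 237 CPM at 2 months, against 198, 165, 171 and 168 CPM at 5 weeks (0.65 ± 0.12, edgeR adjusted p = 8.1e-04). Rpl34 had 269, 178 and 191 CPM at 2 months, against 141, 144, 119.5 and 140.1 CPM at 5 weeks (0.65 ± 0.11, edgeR adjusted p = 3.4e-04). No 5-week library reached a 2-month library for these 3 genes, and replicate 11 was the highest each time. Rps27a, which makes RPS27A fused to ubiquitin, had 146, 141 and 97.3 CPM at 2 months, against 72.4, 68.4, 58.7 and 66.6 CPM at 5 weeks (0.95 ± 0.28, edgeR adjusted p = 0.026). Its call was lost without 5-week replicate 3 or 4, or without 2-month replicate 11 (0.83) or 12.

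The rise at 2 months rested largely on 1 library. In 2-month replicate 11, 84 of 86 members stood above both other 2-month libraries, against 41.1% of all genes, with a median log2 ratio of 0.61 to their mean. Its summed member level was 26427 CPM, with 17546 and 17295 CPM in replicates 12 and 13, and its mitochondrial ribosomal sum was 3368 CPM, with 2520.3 and 2523 CPM in the others. This library had 109 CPM of the nuclear RNA Malat1, with 414 and 397 CPM in the other 2, and 5.88% of its reads in no annotated gene, with 8.58% and 8.79% in the others. Its share of reads that aligned to several places was 13.7%, the highest of the 28 libraries, with 10.998% and 11.4% in the others. The part of these values in the result was not tested. Without replicate 11, the fit called 10 members, 8 that rose and 2 that fell, against 5.16% and 9.71% of the 16909 genes tested in that fit, and the members' median was 0.034. The 8 were Rpl14, Rpl26, Rpl34, Rpl36, Rpl39, Rplp1, Rplp2 and Rps24, and Rpl18 and Rpl32 fell. Rpl34 rose by 0.43 ± 0.09 (edgeR adjusted p = 0.0030) and Rpl14 by 0.41 ± 0.10 (edgeR adjusted p = 0.0070) in that fit. The count was 17 without 5-week replicate 3, and 47 without 2-month replicate 12 or 13, with the shares of all genes in these fits not given here. Whether the low hypothalamic and high midbrain and hindbrain markers of the 2-month libraries bear on the rest was not tested.

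**Figure D4:**
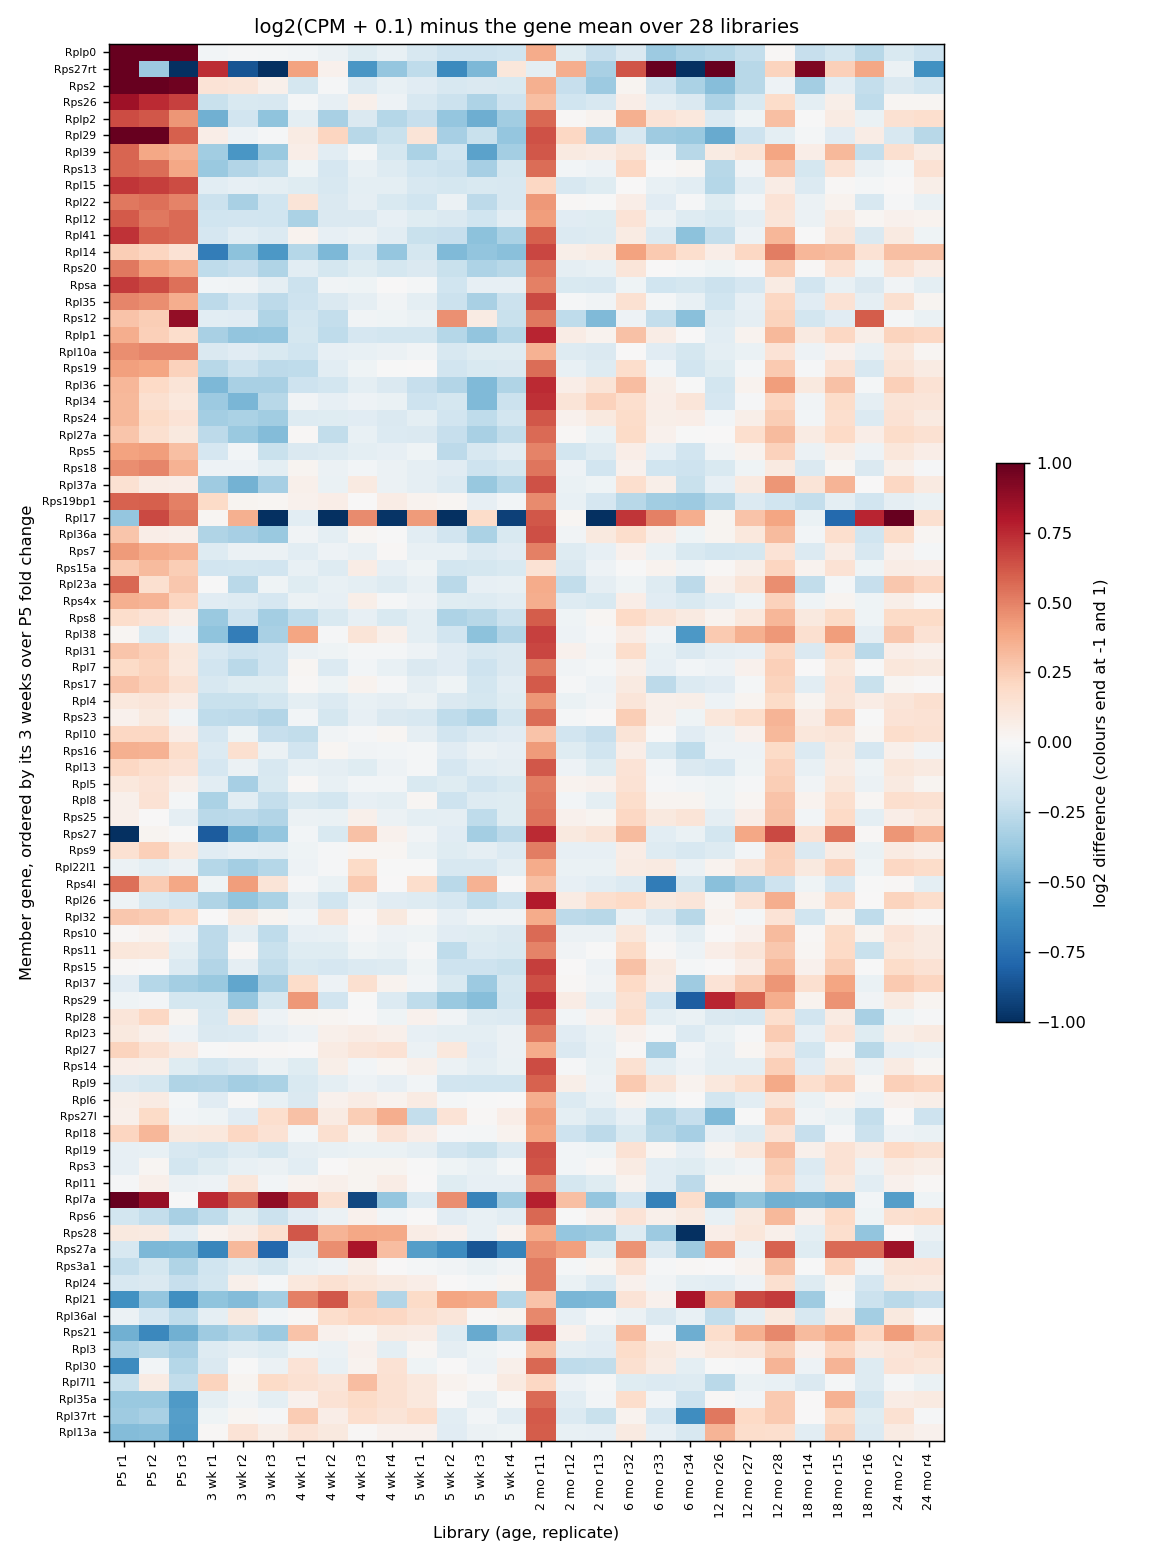
Heat map of 84 tested members in 28 libraries: log2(CPM + 0.1) minus the mean of the gene, red above and blue below, with colors ending at -1 and 1. Rows follow the 3 weeks over P5 fold change, and columns run by age. The column of 2-month replicate 11 is red in nearly every row, and Rps27rt, Rpl17 and Rpl7a change from library to library within ages.

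From 2 months on, 1 member passed the test in any step between neighboring ages. At 6 months Rps19bp1 fell relative to 2 months and no member rose, against 1.83% and 1.77% of all genes (3.59% called). The 6-month libraries lay below the 2-month libraries for 3 members and above for none, against 11.1% and 10.7% of all genes. It had 18.5, 17.6 and 17.4 CPM at 6 months, against 31.2, 21.3 and 19.9 CPM at 2 months (-0.43 ± 0.10, edgeR adjusted p = 0.023). The call was lost without 2-month replicate 11 (-0.20), which left 0 members, and without 6-month replicate 32 or 33. The count was 2 without 2-month replicate 12 and 6 without replicate 13, with the shares of all genes in these fits not given here. No member passed the edgeR test from 6 to 12, 12 to 18 or 18 to 24 months. In these steps 7, 2 and 1 members had an unadjusted p below 0.05, against 1548, 410 and 522 of the 16916 genes. DESeq2 called 0 in each of these steps. In these 3 steps edgeR called no gene at all (0.0% of 16916). The 12-month libraries lay above the 6-month libraries for 8 members and below for none, against 6.9% and 5.65% of all genes. The 18-month libraries lay above the 12-month libraries for 1 member and below for 3, against 2.36% and 3.0%. The 24-month libraries lay above the 18-month libraries for 9 members and below for 2, against 1699 of the 16916 genes and 10.2%.

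Across the 14 libraries from 2 to 24 months, no member had a slope with age that passed the test (edgeR, 0 of 86, and 0 by DESeq2). Of all 16633 genes, 7.43% passed in edgeR (3.08% higher and 4.35% lower with age). At an unadjusted p below 0.05 were 0 members, against 4112 of the 16633 genes. The median slope of the members was -0.0022 per month on the log2 scale. Rpl7a, a 60S protein, had the smallest unadjusted p, with a slope of -0.024 ± 0.012 per month (edgeR adjusted p = 0.217). Without the 2-month libraries, 0 members and 0 of all genes were called. The members' sum at 12 months was 17630 to 21716 CPM, and at 24 months the 2 libraries had 19805 and 19164 CPM. The lowest 12-month library lay within the range of the 4-week libraries (17418 to 18050 CPM), and ages that are not neighbors were not tested.

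The counts of some members varied far more than those of others between libraries of the same age. After each library's median shift over the members was removed, the SD of log2(CPM + 0.1) between libraries of an age had a median of 0.060 over the 86 members, and 65 were under 0.1. Over 0.2 were 9 members: Rps27rt (0.85), Rpl17 (0.66), Rpl7a (0.45), Rpl3l (0.44), Rps27a (0.36), Rps27 (0.29), Rpl21 (0.28), Rps12 (0.26) and Rps29 (0.22). Of the 86, 75 had at least 1 other annotated gene of at least 95% identity over at least 80% of their coding sequence, with a median of 4.5 such genes. The 9 variable members had a median of 8 and the others 4. Rpl21 had 57, Rpl7a 32, Rpl17 and Rps12 22 each, and Rpl3l had none. Levels of such members are uncertain. Reads aligned to several places had a summary line of their own, at 9.25 to 13.7% of each library's total. The setting used for reads that fit several copies is not given in the sources used here. Rplp0 had 3 near-identical genes and an SD of 0.044, and Rps2 had 18 and an SD of 0.057.

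Rpl17 shows the size of this spread. It had 106, 134 and 46.1 CPM at 3 weeks, against 80.1, 165 and 151 CPM at P5, and the groups overlapped. Rpl7a had 132, 118 and 146 CPM at 3 weeks, against 167, 144 and 78.3 CPM at P5, also overlapping. Neither passed the test between P5 and 3 weeks (edgeR adjusted p = 0.459 and 0.959), and the log2 fold change of Rpl7a turned from 0.03 to -0.24 without P5 replicate 3.

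Rps27 (chr3:90212522-90213651, minus strand) and its retrocopy Rps27rt (chr9:114982366-114982739, minus strand) were read together. Rps27 had 130.3, 167 and 177 CPM at 3 weeks, against 100.4, 237 and 231 CPM at P5. Rps27rt had 77.3, 25.4 and 23.2 CPM at 3 weeks, against 202, 36.0 and 20.6 CPM at P5. The library with the lowest Rps27 had the highest Rps27rt at both ages, as at 2, 6 and 12 months, but not at the other 4 ages. Their sum was 208, 193 and 200.4 CPM at 3 weeks, against 302, 273 and 252 CPM at P5, with no overlap. The SD within ages was 0.10 for the sum on the log2 scale, against 0.29 for Rps27 and 0.85 for Rps27rt. Rps27 had a log2 fold change of -0.26 ± 0.25 with no call, and it fell by 0.57 without P5 replicate 1.

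**Figure D5:**
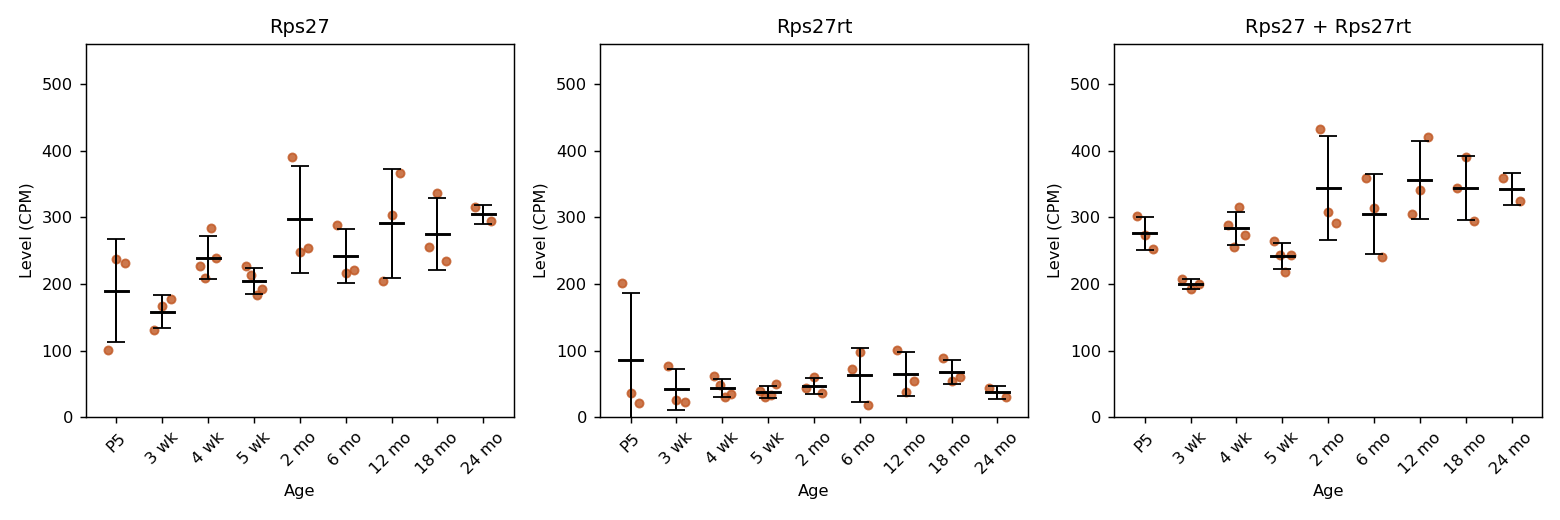
Level in CPM of Rps27, Rps27rt and their sum by age. Points are libraries, thick lines the mean and bars 1 SD. The P5 library at 202 CPM of Rps27rt is the one at 100.4 CPM of Rps27, and the sums at P5 lie between 252 and 302 CPM.

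Fau and Rack1, outside the symbol rule, were read in the same step from P5 to 3 weeks. Rack1, a 40S scaffold for kinases, averaged 163 ± 3.39 CPM at 3 weeks and 255 ± 11.4 CPM at P5 (SD, n = 3 each), and it fell (log2 fold change -0.65 ± 0.09, edgeR adjusted p = 1.4e-06). Fau averaged 267 ± 11.8 CPM at 3 weeks and 245 ± 9.74 CPM at P5 and did not pass (0.12 ± 0.12, edgeR adjusted p = 0.384).

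Other genes of translation were read from lists beside the members, where 29.8% of all tested genes rose and 29.3% fell at 3 weeks. Of 18 elongation factor and TOP genes, 10 fell at 3 weeks and none rose, with a median log2 fold change of -0.22. Hnrnpa1, an RNA-binding protein, averaged 185 CPM at 3 weeks and 398 CPM at P5 (-1.11 ± 0.06, edgeR adjusted p = 1.8e-13). Pabpc1, the poly(A)-binding protein, averaged 119.9 CPM at 3 weeks and 254 CPM at P5 (-1.08 ± 0.08), and Eif3l and Eef1b2 fell by 0.88 and 0.70 on the log2 scale. Of 29 initiation factors 14 fell and 6 rose, with a median of -0.13. Eif4g2 averaged 555 CPM at 3 weeks and 1208 CPM at P5 (-1.12 ± 0.08), while Eif4a2, a helicase, averaged 754 CPM at 3 weeks and 428 CPM at P5 and rose (0.82 ± 0.06). Eif3a and Eif4g1 fell by 0.51 and 0.47.

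Of 43 tested ribosome assembly genes 18 fell and 10 rose at 3 weeks, with a median log2 fold change of -0.16. Ddx21 (-0.73), Noc4l (-0.61) and Tcof1 (-0.56), which act in the nucleolus, fell. Sbds, which readies the 60S subunit for joining, averaged 83.9 CPM at 3 weeks and 32.8 CPM at P5 and rose (1.36 ± 0.09, edgeR adjusted p = 1.5e-12). Of 14 genes of RNA polymerase I and its factors, which transcribe ribosomal RNA, 6 fell and none rose, with a median of -0.10. Taf1d (-0.69), Polr1b (-0.52), Taf1b (-0.33) and Twistnb (-0.29) had the smallest p among them. Of 23 genes of mTORC1 and the S6 kinases 8 rose and 5 fell, with a median of 0.023, which is near the shares over all genes. Deptor, an inhibitor in the mTOR complexes, rose (1.90 ± 0.19), Sesn1 and Pdcd4 rose by 0.42 and 0.41, and Eef2k, the kinase of elongation factor 2, fell (-1.05 ± 0.11). In the adult trend, none of the assembly, polymerase I, mTORC1 or elongation genes passed the edgeR test, and 1 of 29 initiation factors did.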

How the data were processed

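RNA sequencing libraries of mouse hypothalamus at 9 ages were used. Per the submitters' processing notes, the authors used HISAT2 2.1.0, HTSeq 0.9.1 and the mm10 (GRCm38) genome. The deposited values are raw counts per gene symbol. For the annotation, strand setting and trimming, the sources used here give nothing. Summary lines naming no gene (26.1 to 32.5% of each library's total) were dropped.

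From the counts, CPM were computed with TMM-scaled library sizes. Genes were filtered by filterByExpr and fitted with edgeR 4.0.16 in R 4.3.3 (quasi-likelihood, robust, 28 libraries, 1 mean per age). Tests were two-sided, with Benjamini-Hochberg adjustment over all tested genes and calls below 0.05. The ± is 1 SD beside CPM and 1 SE beside a log2 change or slope. Log2 levels used a prior count of 1, or 0.1 CPM where stated. The adult trend used months as a number over 14 libraries. The F-test took all 9 ages. DESeq2 1.42.0, other scalings, no filter, a replicate block and leaving out each library were alternatives. Near-identical copies came from BLAST 2.17.0 of coding sequences against GENCODE M21 transcripts. The edgeR steps were tested on simulated data.

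Members and lists were chosen with earlier results of these data known. Named genes were, per comparison, up to 4 called members with the highest and 4 with the lowest change at 5 CPM or more, the 5 widest and 5 narrowest ranges, X-linked members, a panel of members with known roles, ribosomal genes outside the rule, and up to 4 called genes of each other translation list by p. Members that head a count, and those listed by name for staying outside the P5 range, for spread or for calls without a library, were named after their values were seen. Some named genes are not reported here, and 1 member is not plotted by gene.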

Additional observations from a re-analysis of the deposited data

Results flagged for a closer look

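In groups of 4 libraries, a library was singled out where its gap to the nearest other took a larger share of the group's range than Dixon's 95% critical value. Of 96 groups examined at 4 and 5 weeks, 6 were marked, and chance marks about 1 in 20. At 4 weeks, replicate 3 was high for Rpl22l1 (110.34 CPM, others 93.0 to 95.9) and Rpl7l1 (71.175 CPM, others 62.5 to 63.7). Replicate 1 was high for Rps28 (120.92 CPM, others 99.4 to 102.3), and replicate 2 was low for Rplp1 (387.52 CPM, others 408 to 412). At 5 weeks, replicate 3 was low for Rpl34 (119.54 CPM, others 140.1 to 144), and replicate 1 was high for Rplp0 (239.13 CPM, others 231 to 233).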

How the results depend on the processing

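The count of members called at 3 weeks against P5 (53) was 49 to 59 under the other scalings, filter and tools, 42 to 44 without 1 library, and 31 with P5 replicate 3 alone. The replicate numbers did not pair libraries (correlations of deviations -0.135 to 0.154). With the replicate block it was 59, and also 59 in a fit of the same libraries without it, added after seeing the data. The block called 0 members in the next 2 steps. At 4 against 3 weeks 0 became 1 without composition scaling and 3 with DESeq2, and at 5 against 4 weeks 1 with DESeq2. Without 1 library, the 31 at 2 months ranged from 10 to 47 and the 1 at 6 months from 0 to 6, and the later steps and the trend stayed at 0. Each library was left out only for the steps that held its age and, from 2 months on, for the trend. The log2 ratio of summed levels was -0.36 at 3 weeks over P5 (-0.43 without TMM, -0.39 to -0.33 without 1 library) and 0.30 at 2 months over 5 weeks (0.071 to 0.41). These counts stand without the shares of all genes in the same fits, so they do not show whether the members moved apart from other genes. The cause of these shifts was not tested.

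Of 585 alternative values of named genes, 503 kept direction and side of the threshold, 65 lost the call and 4 gained it. In 13, all of genes without a call, the sign at 3 weeks over P5 turned. Without composition scaling these were Rpl11 (-0.059), Rpl7a (-0.049), Rps6 (-0.023), Rps27a (-0.010) and Rps28 (-0.015). Without 1 library the values ranged from -0.038 to 0.049 for Rpl11, -0.24 to 0.24 for Rpl7a, -0.37 to 0.26 for Rps27a and -0.0078 to 0.093 for Rps28. With the block Rps27a was -0.021, and with P5 replicate 3 alone Rps27l was 0.033.

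With 2 to 4 libraries an age, changes near the median of the members were called in part. At 24 months 2 libraries set the precision.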
